A study of Homo sapiens with 6 samples.

Results

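The transcripts of the Prader-Willi locus on chromosome 15 were followed in Hep3B cells, an established human hepatocellular carcinoma line. Members were all gene rows of the deposited tables whose exons lie between 23.8 and 25.7 Mb of chromosome 15 in the hg19 build, from MIR4508 at position 23807209 to the end of UBE3A at 25684175, which gave 96 of 23228 rows. The interval was chosen by its place on the chromosome after the read counts of its transcripts had been seen to differ between control and PELP1-KD libraries. They comprise 81 small nucleolar RNA (snoRNA) rows, 1 microRNA and 14 other genes, of which 91 lie on the plus strand and 5 on the minus strand. RNA-seq was performed on 3 libraries of control cells carrying a non-targeted shRNA and on 3 libraries labelled PELP1-KD, from cells transduced with lentiviral shRNA against PELP1, a scaffold protein that acts with nuclear receptors and in ribosome biogenesis. The labels describe puromycin selection of the PELP1-KD cells and pooling of stable clones, and the sample titles name shRNA 1 although a pair of PELP1 shRNAs is described. Nothing in the labels says whether libraries of a group came from separate cultures, so SDs, standard errors and p-values measure only the spread between libraries, which may be technical.

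The locus is a textbook case of genomic imprinting, in which an allele is silenced or read according to the parent it came from. An imprinting center at the SNURF-SNRPN start keeps the paternal allele active, and from it a long transcript runs through SNURF-SNRPN, the SNORD116 and SNORD115 snoRNA clusters and IPW toward UBE3A. MKRN3, MAGEL2 and NDN are also read from the paternal allele, whereas UBE3A is read mainly from the maternal allele in neurons and from both alleles in most other tissues. Loss of the paternal transcripts is known for causing Prader-Willi syndrome.

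PELP1 mRNA itself stood close to the control level in the libraries labelled PELP1-KD. It had 4970 ± 115 normalized reads in control and 4695 ± 238 in PELP1-KD libraries (mean ± SD over 3 libraries each), and its log2 fold change was -0.08 with a standard error of 0.041 (edgeR quasi-likelihood test, adjusted p = 0.101). The fit that pairs libraries by replicate number called PELP1 lower (log2 fold change -0.08, edgeR adjusted p = 0.0106), as did the fit without PELP1-KD replicate 3 (-0.11, edgeR adjusted p = 0.018). The label is therefore used throughout as a label. The study reported reduced PELP1 protein in its Hep3B knockdown cells by Western blot, and these RNA counts do not measure protein. Between 26758363 and 34456542 reads per library fell on genes. All 8 hepatocyte markers were detected, with a summed level of 859100 to 873600 normalized reads in control and 754600 to 771200 in PELP1-KD libraries. The summed levels of other marker lists were 1163 to 1225 against 1928 to 1970 for 5 fibroblast markers, none of them at 0 in all libraries. For 5 neuron markers they were 5588 to 5929 against 5978 to 6388, with RBFOX3 at 0. These sums are dominated by their most abundant genes, and TUBB3 makes up most of the neuron sum. MAP2 and SNAP25 stood at 28.1% and 72.3% of control, whereas SYT1 and TUBB3 stood at 130.4% and 108.8%. In the hepatocyte list ALB stood at 65.4% and AFP at 154.2%. CD14, a monocyte marker, had 176.0 ± 26 against 89.0 ± 1.76 normalized reads (log2 fold change -0.98, edgeR adjusted p = 3.31e-06). The 4 endothelial markers summed to 62.96 to 72.84 against 60.68 to 67.57, with CDH5 and KDR at 0. The part of these shifts in the locus results was not tested.

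The snoRNAs of the locus are C/D box RNAs, named for a box C and a box D that bind proteins acting in RNA methylation. Members with reads in these cells are shown here as read from GRCh37, the same coordinates as hg19, all on the plus strand and 5′ to 3′. Capitals mark the first TGATGA (box C) and the last CTGA in the final 15 bases (box D), which was not found in SNORD108.
SNORD107: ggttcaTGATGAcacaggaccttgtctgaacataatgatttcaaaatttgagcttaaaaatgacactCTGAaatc
SNORD64: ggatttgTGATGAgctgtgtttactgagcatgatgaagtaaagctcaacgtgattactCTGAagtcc
SNORD108: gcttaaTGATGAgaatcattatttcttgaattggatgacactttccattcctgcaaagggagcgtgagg
SNORD109A: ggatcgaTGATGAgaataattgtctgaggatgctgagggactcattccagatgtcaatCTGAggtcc
SNORD116-4: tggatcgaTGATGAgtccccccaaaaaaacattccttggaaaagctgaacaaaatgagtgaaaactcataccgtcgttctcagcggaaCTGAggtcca
SNORD116-21: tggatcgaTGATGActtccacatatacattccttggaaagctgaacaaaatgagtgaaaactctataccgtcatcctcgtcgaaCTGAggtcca
SNORD116-22: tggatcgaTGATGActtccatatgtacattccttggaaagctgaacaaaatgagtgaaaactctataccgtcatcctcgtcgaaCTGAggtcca
The last of the sequences shown here belongs to SNORD115, the other large cluster of the locus, whose rows were listed at 0 in all 6 libraries.
SNORD115-30: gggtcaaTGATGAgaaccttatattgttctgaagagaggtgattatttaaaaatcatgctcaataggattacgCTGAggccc

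These sequences lie at chr15:25227141-25227215 for SNORD107, chr15:25230247-25230313 for SNORD64, chr15:25232072-25232140 for SNORD108 and chr15:25287121-25287187 for the first copy of SNORD109A. SNORD116-4 lies at chr15:25304684-25304781, SNORD116-21 at chr15:25333950-25334043, SNORD116-22 at chr15:25335069-25335162 and SNORD115-30 at chr15:25470350-25470431. Within the SNORD116 family, copies 21 and 22 are 97.9% identical and differ by 2 edits, whereas copy 4 is 84.7% identical to copy 21 and 83.7% to copy 22. Over the 29 SNORD116 intervals, the median identity to the nearest other copy is 97.9%, and 48.1% of their 50-base windows occur once in the locus. The 45 SNORD115 intervals have a median identity of 98.8%, and 31.7% of their windows occur once. Box C was found in 28 of 29 SNORD116 intervals and box D in all 29, while 41 and 42 of the 45 SNORD115 intervals held box C and box D. Reads from such repeats can be split or dropped when they match several places, so values of single copies are uncertain.

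Among the 96 rows, 57 had no read in any library and 39 had a read in at least 1. In control libraries, 36, 31 and 33 rows had a read, against 10, 12 and 9 in PELP1-KD libraries. The filter on low counts was passed by 11 rows. PAR-SN, PAR5, SNORD107 and the 3 SNORD116 rows among them had fewer than 10 reads in every PELP1-KD library and passed through the control libraries. Of the 11, 10 were called lower in PELP1-KD libraries (SNRPN, SNURF, PAR-SN, PAR5, SNORD107, SNORD116-4, SNORD116-21, SNORD116-22, IPW and UBE3A), where 26.8% of the 14537 genes tested were called lower, and 1, MKRN3, was called higher, where 26.8% of genes tested were. In either direction, 53.6% of genes tested were called. A fall of at least 2-fold was called for 9 of them (all but UBE3A), against 4.79% of genes tested, and a rise of at least 2-fold for none, against 2.85% of genes tested. The same 9 had a fitted level at or below 10% of control, against 0.688% of genes tested. The groups of libraries did not overlap for all 11 (10 lower, where 29.3% of genes tested were lower without overlap, and 1 higher, where 29.5% were). The locus was chosen because of this contrast, so these counts and the folds given describe the members and are not tests of them. The rows called are not all separate measurements, since SNRPN and SNURF share their reads and SNORD107 lies inside PAR-SN. With each shared base kept in 1 row, fewer rows were called, as given in the closing section. In bulk RNA, fewer cells that make a transcript and less transcript per cell cannot be told apart.

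**Figure D1:**
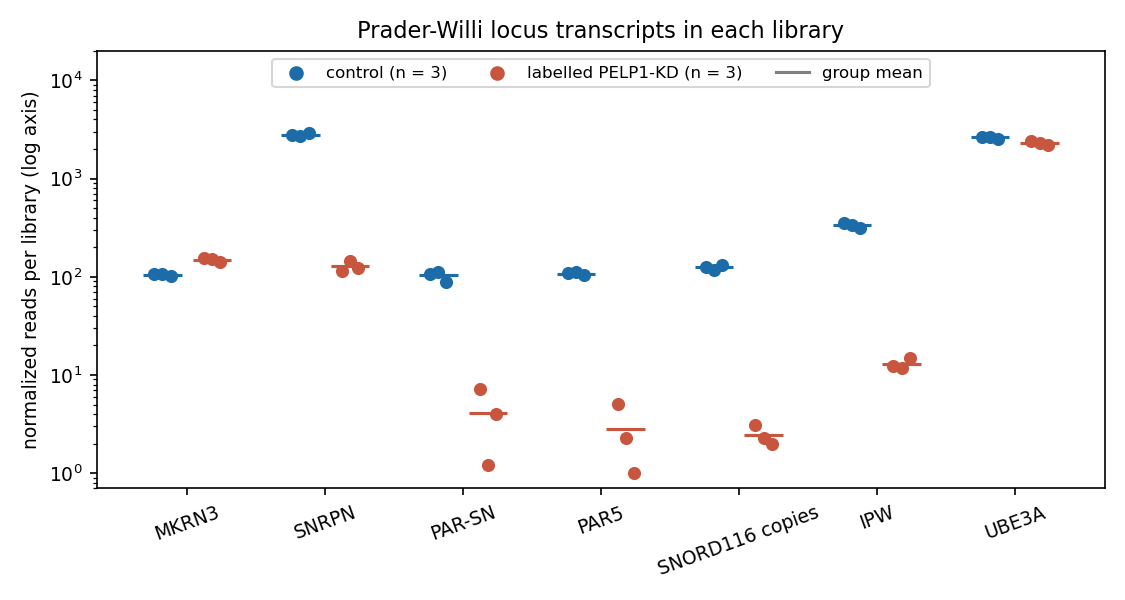
Normalized reads of 7 locus transcripts (log axis) in each of 3 control and 3 PELP1-KD libraries, ordered along the chromosome, where points are libraries and short lines group means. SNRPN lies near 2786 in control and 128.1 in PELP1-KD libraries, whereas UBE3A lies at 2618 and 2295 and MKRN3 is higher in the PELP1-KD libraries.

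SNRPN and SNURF, which lie at chr15:25068794-25223729 and chr15:25200070-25223729, were the most abundant transcripts of the locus in control cells and far lower, though still detected, in the libraries labelled PELP1-KD. SNRPN encodes SmN, a core protein of the spliceosomal snRNPs, and SNURF is a second reading frame of the same transcript. SNRPN counts were 3035, 2802 and 3031 in control and 113, 124 and 124 in PELP1-KD libraries. Every control library was above every PELP1-KD library by a wide margin, while libraries within a group stayed close together. In normalized reads this was 2786 ± 103 against 128.1 ± 15 (SD, n = 3), a log2 fold change of -4.45 with a standard error of 0.070 and a 95% interval from -4.64 to -4.25. SNURF had 3036, 2802 and 3031 reads against 113, 124 and 124. The 2 rows share 1326 exon bases, and reads on shared bases stood whole in both rows, so they are 1 measurement. SNRPN alone holds 666 exon bases, all upstream of the SNURF start, and SNURF alone holds 100, yet the rows differed by at most 1 read.

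PAR-SN and PAR5, noncoding transcripts just beyond the last SNRPN exon, were also low in the PELP1-KD libraries. PAR-SN, which starts 27.1 kb from the SNURF start, had 117, 118 and 93 reads in control and 7, 1 and 4 in PELP1-KD libraries, or 103.0 ± 12.7 against 4.11 ± 3.00 normalized reads (SD, n = 3). Its log2 fold change was -4.57 with a standard error of 0.309 (95% interval -5.42 to -3.71), and it was -5.20 without PELP1-KD replicate 1. PAR5, 29.9 kb from the SNURF start, had 118, 116 and 109 reads against 5, 2 and 1, with a log2 fold change of -5.20 and a standard error of 0.307. Without PELP1-KD replicate 1, the PAR5 value was -5.96. The groups did not overlap for either row, and all PELP1-KD counts were single digits.

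The snoRNA rows within and beside these transcripts followed the same pattern at low counts. Reads on SNORD107, SNORD64 and SNORD108 were taken as also counted in the PAR-SN or PAR5 row, so they are not separate observations. Whether such reads come from the snoRNA or from the longer transcript cannot be told from these counts. SNORD107, whose sequence is shown above and whose bases lie inside PAR-SN, had 26, 27 and 18 reads in control and 4, 1 and 0 in PELP1-KD libraries, with a log2 fold change of -3.57 and a standard error of 0.556. Without PELP1-KD replicate 1, its log2 fold change was -5.08. SNORD64, inside PAR5, had 15, 8 and 4 reads against 1, 0 and 0, and did not pass the filter. SNORD108, also inside PAR5, had 7, 10 and 10 reads in control and none in PELP1-KD libraries, at least 8.02-fold lower when 3 reads over the group are taken as the floor. The SNORD109A and SNORD109B rows each hold both copies of an identical sequence and had the same counts, 9, 9 and 14 against 0, 1 and 0. Because their sequences are identical, these counts belong to the pair.

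SNORD116, the snoRNA cluster deleted in the smallest deletions known to cause Prader-Willi features, was read from many copies in control cells. Of its 29 rows, 26 had a read in a control library and 4 in a PELP1-KD library. Counting rows with shared bases once, the 25 distinct rows summed to 136, 123 and 139 reads in control and 3, 2 and 2 in PELP1-KD libraries. That was 125.1 ± 7.36 against 2.47 ± 0.549 normalized reads (SD, n = 3). The sums thus did not overlap, and the spread within each group was small beside the gap. Another fit summed all 29 rows, so that reads on shared bases count in each row that holds them. It gave a log2 fold change of -5.66 with a standard error of 0.271.

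Copies differed in their share of these reads. SNORD116-4 had 48, 41 and 47 reads in control libraries and 3, 0 and 1 in PELP1-KD libraries, a log2 fold change of -4.80 with a standard error of 0.460, which was -6.02 without PELP1-KD replicate 1. SNORD116-21 had 23, 25 and 19 reads against 0, 0 and 1, and SNORD116-22 had 11, 13 and 27 against 0, 1 and 0, with log2 fold changes of -5.47 (standard error 0.682) and -5.08 (standard error 0.846). These values moved to -7.41 for SNORD116-21 without PELP1-KD replicate 3 and to -7.06 for SNORD116-22 without PELP1-KD replicate 2. Among rows below the filter, SNORD116-14 had 5, 10 and 4 reads and SNORD116-20 had 5, 10 and 10 in control, and both had none in PELP1-KD libraries. Copy 4 is largely distinct in sequence, with 91.8% of its 50-base windows found once in the locus, against 46.7% for copy 21 and 53.3% for copy 22. The remaining SNORD116 rows had fewer than 10 reads in every library, and SNORD116-6, SNORD116-10 and SNORD116-12 had none.

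**Figure D2:**
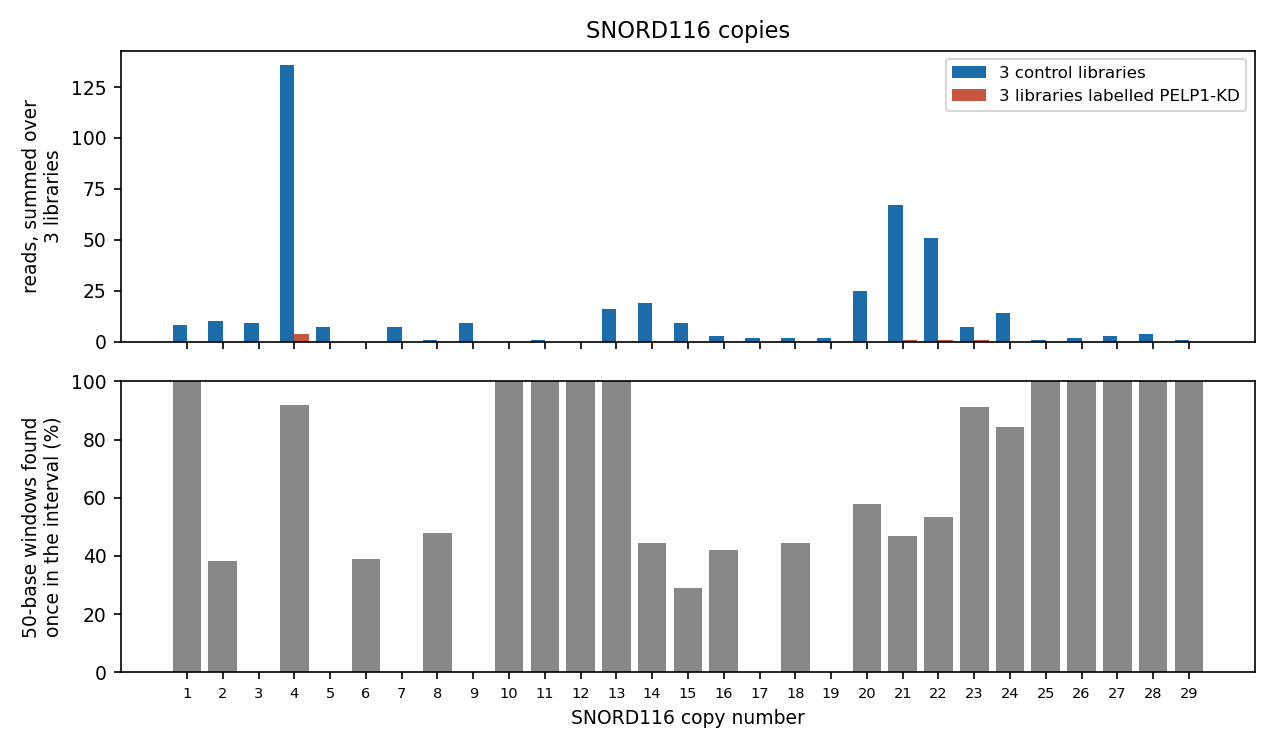
Reads on each of the 29 SNORD116 rows, summed over 3 control or 3 PELP1-KD libraries (upper bars), above the share of 50-base windows of each copy found once in the locus (lower bars, percent). Copies 4, 21 and 22 lead with 136, 67 and 51 control reads, PELP1-KD reads appear on 4 rows, and copies 3 and 9, 5 and 7, and 17 and 19 are pairs of rows with the same bases and the same reads.

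IPW, a spliced noncoding transcript beyond the SNORD116 cluster, had 388, 349 and 327 reads in control and 12, 10 and 15 in PELP1-KD libraries. It lies at chr15:25361692-25367623, 161.6 kb from the SNURF start. All control libraries were above all PELP1-KD libraries. The normalized levels were 334.0 ± 21.9 and 12.98 ± 1.76 reads (SD, n = 3), with a log2 fold change of -4.67 and a standard error of 0.154 (95% interval -5.09 to -4.24). PAR1, farther on, had 1 read in each control library and none in PELP1-KD libraries, which is too few for a fold. PAR4 and all 47 SNORD115 rows were at 0 in every library, where 3 reads would be 0.0871 to 0.112 reads in 1000000.

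With reads pooled over the 3 libraries of each group, the level that remained in PELP1-KD libraries was 4.57% of control for SNRPN (95% interval 4.10 to 5.08, from 8868 and 361 reads). The value was 4.11% for PAR-SN (2.10 to 7.27), 2.62% for PAR5 (1.12 to 5.22), 1.97% for the SNORD116 rows (0.789 to 4.11) and 3.90% for IPW (2.73 to 5.42). SNORD64, SNORD107, SNORD108 and SNORD109 together stood at 5.01% (1.98 to 10.6), and SNORD107 alone at 7.91% (2.49 to 19.3). Among single SNORD116 copies with a read in both groups, the value ran from 1.68% for SNORD116-21 (0.0418 to 9.66) to 16.0% for SNORD116-23 (0.356 to 125), each of which had 1 read in the PELP1-KD libraries. These intervals cover counting error only. In the fits of summed rows, reads on shared bases count in each row that holds them, which narrows the interval of SNRPN with SNURF. Their 95% interval of the log2 fold change was -4.62 to -4.28, against -4.64 to -4.25 for the SNRPN row alone. That of the SNORD116 copies was -6.41 to -4.90. The difference between members in how much remained was not tested.

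**Figure D3:**
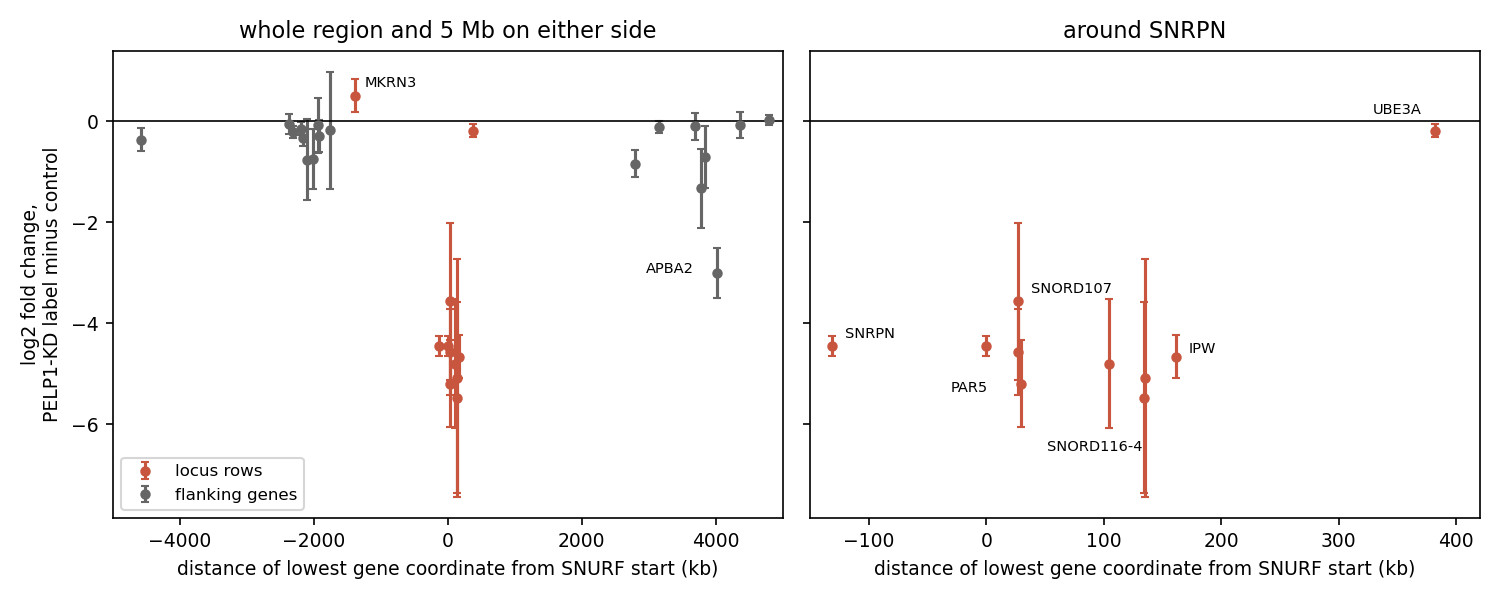
Log2 fold change (PELP1-KD label minus control) with its 95% interval for the 11 locus rows and 18 flanking genes that passed the filter, against the distance of the lowest gene coordinate from the SNURF start in kb, for the whole region (left) and around SNRPN (right). The rows from SNRPN to IPW lie between -3.57 and -5.47, UBE3A lies at -0.19 and MKRN3 at 0.50.

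UBE3A, the E3 ubiquitin ligase gene lost in Angelman syndrome, ends the locus on the minus strand at chr15:25582396-25684175 and stayed near the control level. It had 2874.25, 2793 and 2665 reads in control and 2337, 1988 and 2174 in PELP1-KD libraries. The normalized values, 2618 ± 68.9 against 2295 ± 113 (SD, n = 3), did not overlap. The PELP1-KD level was 87.7% of control, a log2 fold change of -0.19 with a standard error of 0.045 (95% interval -0.32 to -0.07).

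MKRN3, an intronless gene of a zinc-finger ubiquitin ligase known for its role in the timing of puberty, lies on the other side of SNRPN at chr15:23810454-23813166. Its single exon in the count tables did not match an exon of the GRCh37 annotation used here. It had 116, 112 and 107 reads in control and 150, 129 and 143 in PELP1-KD libraries. In normalized reads all 3 PELP1-KD libraries were higher, at 149.0 ± 5.53 against 105.3 ± 2.80 (SD, n = 3). Its log2 fold change was 0.50 with a standard error of 0.117 and a 95% interval from 0.17 to 0.83, and it kept its direction in all 15 alternative fits. Its neighbors were silent in both groups. MAGEL2, which encodes a partner of the ubiquitin ligase TRIM27, and NDN, which encodes the growth suppressor necdin, were at 0 in all libraries, as were PWRN1, PWRN2, C15orf2 and MIR4508.

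Per kilobase of exon and 1000000 reads (RPKM), the order of the 11 rows that passed the filter was led in control libraries by SNURF at 62.2 ± 2.30 and SNRPN at 44.5 ± 1.64, which are the same reads over different lengths. UBE3A followed at 15.8 ± 0.415 RPKM, then SNORD116-4 at 13.9 ± 0.970, SNORD107 at 9.46 ± 1.93, SNORD116-21 at 7.13 ± 0.988 and SNORD116-22 at 5.45 ± 2.86. The mean ± SD ranges of SNORD107, SNORD116-21 and SNORD116-22 overlapped, whereas those of the neighbors before them did not, and a per-length level of a row shorter than 100 bases depends on how fragments overlap it. IPW at 2.36 ± 0.155, PAR-SN at 1.82 ± 0.225, MKRN3 at 1.23 ± 0.0329 and PAR5 at 1.02 ± 0.0341 came last. Of the rows below the filter, SNORD64 at 3.99 ± 2.38, SNORD108 at 3.93 ± 0.837, SNORD116-20 at 2.68 ± 0.973 and SNORD109A at 2.39 ± 0.676 RPKM had means above that of IPW, and SNORD116-14 stood at 2.03 ± 1.06. In PELP1-KD libraries the order changed, with UBE3A first at 13.8 ± 0.679 RPKM, then SNURF at 2.86 ± 0.334, SNRPN at 2.05 ± 0.239 and MKRN3 at 1.75 ± 0.0649. The level of SNRPN thus went from above that of UBE3A to a value near that of MKRN3.

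**Figure D4:**
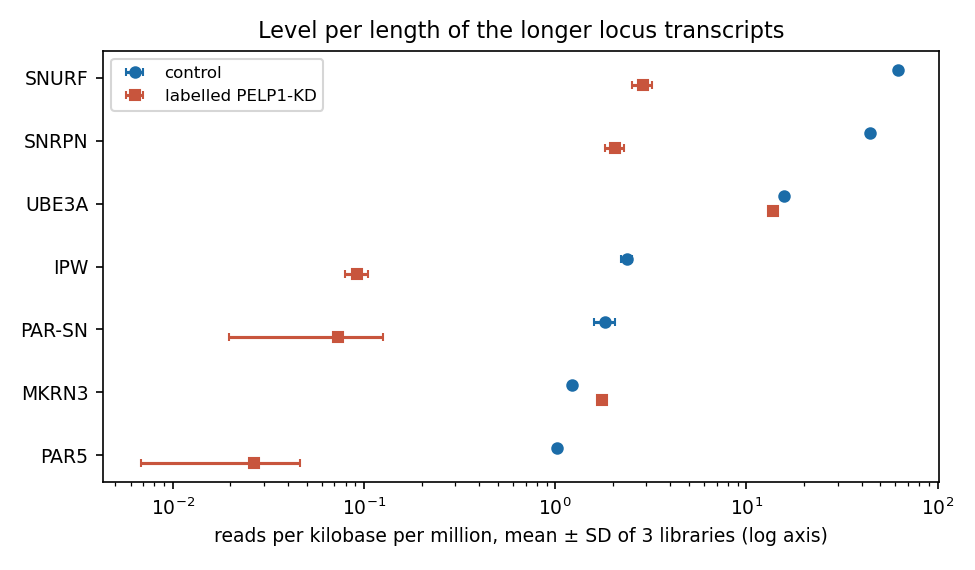
Mean ± SD over 3 libraries of RPKM (log axis) for the 7 longer locus transcripts in control (circles) and PELP1-KD (squares) libraries. SNRPN moves from 44.5 to 2.05 RPKM and IPW from 2.36 to 0.0918, whereas UBE3A moves from 15.8 to 13.8.

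Promoter windows of 300 bases, 250 before and 50 after each start in RefSeq (GRCh38.p14, another build than the count tables), were searched for motifs of factors known at imprinted starts. The motifs were TGCCGC (ZFP57), TGCGCA (NRF1 core) and CCATNTT (YY1), on both strands, and 16.7%, 8.20% and 15.6% of the 35116 windows in the table hold them. The start shared by SNURF and SNRPN, chr15:24954737-24955036 on the plus strand, is shown because the transcripts that run from it were low together. It holds TGCCGC at 2 places, in capitals, 18 CpG and a CpG observed-over-expected ratio of 0.58, equal to the median of all windows.
SNURF and SNRPN shared start: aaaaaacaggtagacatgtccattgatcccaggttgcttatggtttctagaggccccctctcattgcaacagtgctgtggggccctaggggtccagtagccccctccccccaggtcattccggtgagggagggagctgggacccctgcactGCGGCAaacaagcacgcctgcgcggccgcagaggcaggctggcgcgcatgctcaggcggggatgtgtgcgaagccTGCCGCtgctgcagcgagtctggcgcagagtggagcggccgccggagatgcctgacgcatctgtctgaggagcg
The MKRN3 window, chr15:23565424-23565723 on the plus strand, is shown as that of the transcript that was higher. It holds none of these motifs, 15 CpG and a ratio of 0.62.
MKRN3 start: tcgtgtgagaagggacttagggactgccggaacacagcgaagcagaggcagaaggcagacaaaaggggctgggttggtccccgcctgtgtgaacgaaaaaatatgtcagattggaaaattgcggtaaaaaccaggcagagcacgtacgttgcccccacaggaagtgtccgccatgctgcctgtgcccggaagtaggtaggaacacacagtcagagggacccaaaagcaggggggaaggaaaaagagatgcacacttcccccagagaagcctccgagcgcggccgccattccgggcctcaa
A match is a description of the letters and not a binding site. Of 3 UBE3A windows, those at chr15:25438975-25439274 and chr15:25439007-25439306 overlap and held the same 1 CCATNTT. Their CpG ratios were 0.99 and 0.94. The UBE3A window at chr15:25438180-25438479 held none of the motifs, with a ratio of 0.89. Of the other SNRPN starts, chr15:24856321-24856620 held 1 TGCGCA, chr15:24862722-24863021 held none and chr15:24956050-24956349 held 1 of each motif. Among members without a read in any library, the NDN window held 1 TGCCGC, with a CpG ratio of 0.95. The MAGEL2 window held 1 CCATNTT, and that of NPAP1 (C15orf2) held none of the motifs. A relation between motifs and the direction of change was not tested.

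The genes beside the locus were not members and were tested in the fit over all genes (edgeR quasi-likelihood test, Benjamini-Hochberg adjusted p). Of 50 genes within 5000000 bases on either side, 27 had a read and 18 passed the filter. Of these 18, 12 were called lower and none higher, where 26.8% of all genes tested were called in each direction. Their median log2 fold change was -0.25 against 0.004 over all genes. None of the 18 had a fold change as low as that of SNRPN. APBA2, which encodes a neuronal adaptor protein and lies on the far side of UBE3A, had 267.6 ± 9.32 normalized reads in control and 33.7 ± 14.7 in PELP1-KD libraries, a log2 fold change of -3.01 (edgeR adjusted p = 2.06e-11). OCA2, the melanosomal transporter gene, fell from 322.1 ± 21.1 to 179.0 ± 18.1 normalized reads (log2 fold change -0.85, edgeR adjusted p = 3.86e-07).

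On the centromeric side, CYFIP1, NIPA1 and NIPA2, which are biallelic genes, had log2 fold changes of -0.21, -0.34 and -0.15 (edgeR adjusted p of 4.14e-04, 1.48e-05 and 0.00875). TUBGCP5, also on that side, had a value of -0.06 (edgeR adjusted p = 0.474). On the telomeric side, NDNL2 and TJP1 had values of -0.08 and 0.02 (edgeR adjusted p of 0.483 and 0.62), and HERC2 was at -0.12 (edgeR adjusted p = 0.0338). The other genes, on both sides, are repeats of this chromosome region whose reads may be split with near-identical copies. They were called lower for HERC2P3 (-0.37), LOC283683 (-0.76), WHAMMP3 (-0.75), HERC2P2 (-0.30), WHAMMP2 (-1.33) and LOC646278 (-0.72), while GOLGA8IP (-0.08), GOLGA8E (-0.19) and HERC2P9 (-0.10) did not pass the test. HERC2P2, LOC283683 and HERC2 were not called with DESeq2 (adjusted p of 0.059, 0.11 and 0.0552). Without control replicate 2, HERC2P2 and LOC283683 were no longer called (log2 fold changes -0.11 and -0.46, edgeR adjusted p of 0.346 and 0.24), nor were they without PELP1-KD replicate 1. HERC2P2 also lost its call without PELP1-KD replicate 3 and LOC283683 without PELP1-KD replicate 2. NIPA2 lost its call without control replicate 1 or 2, LOC646278 without PELP1-KD replicate 3, and HERC2 without control replicate 1 or 3 or PELP1-KD replicate 1 or 2. Nearest to the borders, LOC653061 had 5, 1 and 1 reads against 3, 1 and 4 and ATP10A had none, and just inside them MIR4508 had none and UBE3A is given above.

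Of 181 rows of C/D snoRNAs encoded elsewhere, 134 had a read and 75 were tested. Among these, 12 were called higher and 2 lower, where 26.8% of all genes tested were called in each direction, and the median log2 fold change was 0.20 against 0.004 over all genes. SNORD58B led the rises by adjusted p (log2 fold change 0.40, edgeR adjusted p = 2.37e-05), followed by SNORD104 (0.57, edgeR adjusted p = 3.2e-04) and SNORD46 (1.78, edgeR adjusted p = 8.99e-04), and SNORD86 and SNORD77 were called lower (-0.14 and -1.11, edgeR adjusted p of 0.0151 and 0.0292). With DESeq2, 5 were called higher and 1 lower, without control replicate 2, 7 were called higher, and without PELP1-KD replicate 2, none was called lower. SNORD46 counts were low, at 6.64 ± 3.50 and 23.3 ± 7.10 normalized reads (SD, n = 3). Of 11 tested genes for proteins that bind or assemble C/D snoRNAs, 5 were called lower and 1 higher, all by small amounts. PIH1D1, NOP56 and RUVBL1 had log2 fold changes of -0.25, -0.11 and -0.12, and ZNHIT6 had 0.16 (edgeR adjusted p of 6.09e-05, 0.00743, 0.0133 and 0.021). Without control replicate 3 and without PELP1-KD replicate 2, 3 and 2 of these genes were called lower, and ZNHIT6 lost its call with DESeq2 and without control replicate 2 or 3 or PELP1-KD replicate 1 or 2.

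Partners of the proteins encoded in the locus had fold changes far smaller than that of SNRPN. For the counts that follow, the share of all genes tested that were called was 26.8% in each direction. Of 12 spliceosomal snRNP core genes, 4 were called lower and none higher (1 higher with the replicate block), the 4 led by SNRPA (-0.22), SNRPE (-0.18) and SNRPC (-0.13, edgeR adjusted p of 6.81e-04, 0.00235 and 0.0121). SNRPB, which encodes the close relative of SmN and was singled out after its values were seen, had 13120 ± 70.0 against 12670 ± 532 normalized reads (log2 fold change -0.05, edgeR adjusted p = 0.23). Of 13 genes of the SMN complex and methylosome that assemble snRNPs, 2 were called lower, GEMIN4 (-0.39) and CLNS1A (-0.18), and DDX20 was called higher (0.20, edgeR adjusted p of 3.36e-06, 0.00176 and 0.0122). SNRPC lost its call without control replicate 2 or PELP1-KD replicate 2, either of which left 2 snRNP core genes called lower, and DDX20 lost its call without control replicate 3 or PELP1-KD replicate 1. Of 10 partners of MAGEL2 in ubiquitin-dependent endosomal recycling, 4 were called higher and 2 lower, although MAGEL2 itself had no read in any library. KIAA1033, a subunit of the WASH complex, rose by 0.52 (edgeR adjusted p = 5.43e-08), FAM21A by 0.83 and FAM21C by 0.44, although the FAM21 genes are near-identical and their reads uncertain, and USP7 and CCDC53 were lower (-0.17 and -0.28), the call of CCDC53 being lost with DESeq2 and without any control replicate or PELP1-KD replicate 1. Among 7 partners of UBE3A, MAPK6 (-0.28, edgeR adjusted p = 9.42e-06) and HERC2 were called lower and none higher, and with the replicate block 3 were called lower and 1 higher.

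Of 19 tested genes of the machinery that sets or reads imprints, 5 were called lower and 6 higher, shares near the 26.8% of all genes in each direction, with a median log2 fold change of -0.01 (without control replicate 2, 3 were called higher, and with the replicate block 7 were called in each direction). DNMT1, the maintenance DNA methyltransferase, its recruiter UHRF1 and the histone methyltransferase gene SETDB1 were lower (log2 fold changes -0.41, -0.35 and -0.30, edgeR adjusted p of 1.19e-08, 8.76e-07 and 8.28e-05). DNMT3B, a de novo DNA methyltransferase gene, SMCHD1, a chromatin protein gene, and ZNF274, whose protein is known to bind the SNORD116 cluster, were higher (0.42, 0.23 and 0.20, edgeR adjusted p of 8.32e-08, 3.85e-04 and 0.00181). ZFP57 was at 0 in all libraries.

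Other genes read from the paternal allele at other loci did not all follow SNRPN. Of 16, 13 were tested, of which 6 were called lower and INPP5F higher (log2 fold change 0.60, edgeR adjusted p = 1.03e-06), with a median of -0.05. Over all genes tested, 26.8% were called in each direction. A fall of at least 2-fold was called for 5 of the 13, against 4.79% of genes tested. DLK1, a Notch-family ligand gene, had 1509 ± 27.1 normalized reads in control and 3.43 ± 2.04 in PELP1-KD libraries (log2 fold change -8.69, edgeR adjusted p = 1.96e-20). IGF2, the fetal growth factor gene, and MEST, a hydrolase-family gene, had log2 fold changes of -1.43 and -2.22 (edgeR adjusted p of 7.42e-19 and 7.77e-15). PEG3, named after its values were seen, had 439.2 ± 42.7 against 27 ± 9.38 normalized reads (log2 fold change -3.99, edgeR adjusted p = 2.97e-14). SGCE, KCNQ1OT1 and PLAGL1, also chosen after their values were seen, had log2 fold changes of -0.003, 0.08 and 0.11 and did not pass the test (edgeR adjusted p of 0.963, 0.584 and 0.129).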

How the data were processed

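Estimated counts per gene were deposited for each of the 6 libraries. Per the file headers, the authors made them with featureCounts (v1.5.0-p1) on hg19 gene exons, with a minimum mapping quality of 2, paired fragments, strand setting 2, overlapping genes allowed and multi-mapped reads counted as fractions. The submitters' processing notes list bcl2fastq, HISAT2 and SAMtools, whereas the study's methods name TopHat2 and HTSeq, and the sources also differ on the RNA and library kits. Of the 35 locus rows sharing exon bases, 0% of values were fractional, so reads on shared bases were taken as counted in full in each row.

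Counts were rounded and fitted for all genes with edgeR (4.0.16, R 4.3.3, TMM, filterByExpr, robust quasi-likelihood test, Benjamini-Hochberg adjustment, called at 0.05). Normalized reads are reads divided by the library's relative effective size. Standard errors are the log2 fold change over the root of F, and 95% intervals use 4 residual degrees of freedom. Pooled percentages carry 95% exact binomial intervals for counting error, and the floor was 3 reads. DESeq2 (1.42.0), other normalizations and filters, a replicate block and left-out libraries were alternatives. Libraries of the same number deviated together (r = 0.336, 0.247 and 0.666 over 6370 genes). Control 2 and PELP1-KD 1 (0.418) and control 1 and PELP1-KD 2 (0.244) also did, so these values do not show whether the numbers pair libraries. The main fit left the numbers out, and only the replicate block used them. Same-group libraries differed by more than sampling noise (chi-square per degree of freedom 1.92 to 6.76). The fit was tested on simulated data.

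The members and gene lists were chosen with earlier results of these data known. Named were all members passing the filter or with 10 reads in a library, all flanking genes passing it, and up to 3 called genes per direction of each list, with exceptions stated. The long antisense transcript of the locus has no row and was not analysed here. A marker list and some flanking genes are not reported here.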

Additional observations from a re-analysis of the deposited data

How the results depend on the processing

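The 11 tested locus rows kept their direction and their call in all 152 values from alternative fits, left-out libraries included. The number of locus rows called lower, 10, became 18 with DESeq2, 23 with no filter and 4 with at least 10 reads required in every library, and the number at least 2-fold lower, 9, became 17, 22 and 3 under the same settings. Both filter settings change which rows of few reads are tested, and the cause of the change with DESeq2 was not tested. Without any single library they remained 10 and 9. With copies and shared rows summed they were 7 and 6, and with SNURF, snoRNA rows inside PAR-SN and PAR5 and repeated snoRNA rows left out so that each shared base was kept in 1 row, an alternative added after seeing the data, 8 and 7. The replicate block left them at 10 and 9 and the flanking genes called lower at 12, gave 30 and 17 list genes called lower and higher in place of 26 and 13, and changed no call of a named locus row or flanking gene. Of the flanking genes, NIPA2, LOC283683, HERC2P2, HERC2 and LOC646278 lost their call without at least 1 library, LOC283683, HERC2P2 and HERC2 also with DESeq2, and 3 uncalled genes changed sign, with left-out libraries giving -0.177 to 0.037 for GOLGA8IP (positive without control replicate 3), -0.627 to 0.116 for GOLGA8E (without PELP1-KD replicate 3) and -0.179 to 0.005 for NDNL2 (without PELP1-KD replicate 1). In the lists, SNRPC, DDX20, NOP56, RUVBL1, ZNHIT6 and CCDC53 lost their call without at least 1 library. Depth limits the snoRNA rows, whose PELP1-KD counts are single digits.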
